A study of Mus musculus with 112 samples.

Results

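The cerebral cortex of 129S1/SvImJ mice on the control diet was set against that of 5 other inbred strains on the same diet, to find which genes set this strain apart. The members were the 8 control arrays of 129S1/SvImJ, and the other side held 39 control arrays of DBA/2J, CBA/J, Balbc/J, C3H/HeJ and C57BL6/J, so that 47 of the 112 arrays of the series entered the comparison. One C57BL6/J control array, replicate 6, was left out because it carried cerebellar RNA. Each gene's difference was the mean of 129S1/SvImJ minus the mean of the 5 strain means, each strain counting equally, over the 19938 genes whose probe sets name exactly 1 gene. The same contrast was repeated in calorically restricted (CR) mice, with 8 arrays of 129S1/SvImJ and 40 of the other strains, which share no mouse with the control arrays.

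The series followed the response of the cortical transcriptome to a long caloric restriction in 7 mouse strains on Affymetrix Mouse Gene ST arrays. Male mice bought at 6 weeks were caged alone on 84 kcal per week of a purified AIN93M-type diet, went onto the control or CR diet at 8 weeks and gave tissue at 22 weeks after an overnight fast. Control mice of 129S1/SvImJ, DBA/2J, CBA/J, C57BL6/J and C3H/HeJ received equal amounts of food, Balbc/J received more food on both diets, and the CR allowance of 129S1/SvImJ and C57BL6/J was lowered further partway through. No mutation, transgene or drug was named for any of these groups, and the part that food allowance or body weight plays in the Balbc/J values was not tested.

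An inbred strain is a line of nearly identical mice, so a variant that alters how a gene is transcribed, spliced or degraded is carried by every animal of it. Strain differences in brain RNA therefore tend to appear in every mouse of a strain, and often involve genes that lie side by side on a chromosome. 129S1/SvImJ belongs to a family of strains that gave many of the embryonic stem cell lines used for gene targeting, and that lack a stretch of Disc1, a scaffold gene linked to psychiatric illness, and carry a defective Casp4, an inflammatory caspase. An array reads RNA through short probes designed on a reference genome, and a strain variant under a probe can also lower or raise its signal. Whether such variants lie under the probes used here was not tested.

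Values are log2 signal, so that a difference of 1 is a 2-fold change. A gene was called where limma's moderated test, adjusted by the Benjamini-Hochberg method over all genes, gave a value under 0.05, and it was counted as outside the range where it was called and all 8 arrays of 129S1/SvImJ lay above, or all 8 below, every one of the other 39 arrays. Array medians lay between 7.14 and 7.26. The spread of each array around the gene medians is used as a measure of quality. These medians were taken over all the strains and both diets, so the spread also widens where a strain's genes differ. It had a median of 0.242 (range 0.1997 to 0.338) in 129S1/SvImJ against 0.197 (range 0.149 to 0.330) in the other 39 arrays. Among those, C57BL6/J had a median of 0.253. The part of this spread in the results was not tested beyond a fit with it as a covariate. The labels give no scan date or array batch, and numbered replicates did not pair the arrays. The labels number the arrays of a group as replicates, and p-values measure the spread between them.

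In control mice 9714 of 19938 genes were called, which is 48.7% of those tested: 4533 higher (22.7%) and 5181 lower (26%) in 129S1/SvImJ. Most of these differences were small, with a median size of 0.19 among called genes and a median standard error of 0.0496. A difference of at least 1.5-fold was found for 130 called genes (0.652%), 46 higher (0.231%) and 84 lower (0.421%), and one of at least 2-fold for 9 higher (0.0451%) and 8 lower ones (0.0401%). A stricter group of 216 genes (1.08%) lay outside the range of the other strains, of which 42 (0.211%) were higher and 174 (0.873%) lower, so that 80.6% of them were lower in 129S1/SvImJ. The count depends on the arrays it is set against: the mean of the cerebellar genes was 7.22 in the highest 129S1/SvImJ array and 8.14 in DBA/2J control replicate 8, the highest array used, and without that array 331 genes lay outside the range, and without DBA/2J altogether 426 did.

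The highest gene was Gdpd3, which encodes a phosphodiesterase that makes lysophosphatidic acid in membranes. Its signal was 7.65 at the lowest, 8.08 at the median and 8.48 at the highest in 129S1/SvImJ, against 5.43, 5.71 and 6.01 in the other strains. The groups were 1.64 apart at their closest, the widest gap of any gene, and the fitted difference was 2.34 ± 0.065 (SE), a 5.05-fold increase (limma, adjusted p = 3.5e-31). The strain means of the other 5 lay close together, between 5.63 in C3H/HeJ and 5.81 in Balbc/J.

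Serpina3n, a secreted protease inhibitor that astrocytes make in inflammation, came next among the genes outside the range. It read 11.05, 11.26 and 11.52 at the lowest, median and highest in 129S1/SvImJ, against 8.24, 9.45 and 10.17 in the others. No array overlapped, and the difference was 2.04 ± 0.074, or 4.11-fold (adjusted p = 1.6e-26, limma). Here the other strains also differed among themselves, with means of 8.50 in C3H/HeJ and 8.70 in C57BL6/J, and of 9.59 in Balbc/J, 9.66 in CBA/J and 9.73 in DBA/2J. Gfap and Vim, also genes of the astrocyte reaction to injury, did not move with it. Gfap, the filament protein of these cells, was lower (−0.53, adjusted p = 8.6e-08, limma) and Vim, another filament, was lower (−0.35, adjusted p = 1.5e-05, limma). Gfap and Vim were picked after their values were seen.

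Anxa5, a calcium-dependent protein that binds phosphatidylserine, had 10.97, 11.04 and 11.21 in 129S1/SvImJ against 9.72, 10.14 and 10.48 in the others. The gap was 0.50 and the difference 0.94 ± 0.049 (adjusted p = 2.2e-20, limma). Cacng2, or stargazin, which carries AMPA receptors to the synapse, had 10.98, 11.19 and 11.53 in 129S1/SvImJ against 9.64, 10.16 and 10.87. The groups did not overlap and the difference was 1.03, but it was 0.52 when all probe sets of the gene are averaged in place of taking the brightest. The unnamed transcript BC018473 was higher by 1.26, with 6.88 to 7.31 in 129S1/SvImJ against 5.40 to 6.10.

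The other higher genes of the leading 12 were Tdrd5 (0.86), a germ cell protein of piRNA silencing, Adi1 (0.85), a dioxygenase of the methionine salvage pathway, the microRNA gene Mir137 (0.84), Pnck (0.73), a calmodulin-dependent kinase, Klri1 (0.72), a natural killer cell receptor, Stxbp4 (0.59), a syntaxin-binding protein, and D130007C19Rik (0.59). Klri1 was dim in both groups, at 5.30 to 5.82 in 129S1/SvImJ against 4.41 to 5.15, and Stxbp4 fell to a difference of 0.33 with all its probe sets averaged. Among the rest, picked after their values were seen, were Slitrk3, a postsynaptic adhesion molecule of inhibitory synapses (0.56), and Gsk3a, a kinase of insulin and Wnt signalling (0.54). Both lay outside the range on both diets.

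The largest decrease among the genes outside the range was in Cmbl, a hydrolase that activates some ester prodrugs, with 6.52, 6.87 and 7.39 in 129S1/SvImJ against 7.57, 8.08 and 8.82 in the others. The groups did not overlap and the difference was −1.18 ± 0.085 (adjusted p = 1.4e-15, limma). Baalc, a membrane-anchored protein of astroglia and of leukaemic blasts, had 8.77, 9.001 and 9.12 in 129S1/SvImJ against 9.69, 10.12 and 10.43. It had the widest gap of any lower gene, 0.57, and a difference of −1.14 ± 0.053 (adjusted p = 2.2e-22). Churc1, a zinc-binding regulator of fibroblast growth factor responses in embryos, had 7.50, 7.85 and 8.06 against 8.57, 8.88 and 9.67, and a difference of −1.11 ± 0.052. All 39 arrays of the other strains again lay above the highest 129S1/SvImJ array.

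Several of the next lower genes belong to the ribosome and the mitochondrion. Rpl4, a protein of the large ribosomal subunit, had 8.95, 9.06 and 9.48 in 129S1/SvImJ against 9.85, 10.10 and 10.30, a difference of −0.99 ± 0.044 (adjusted p = 4e-23, limma). Ndufs5, a subunit of respiratory complex I, had 7.08, 7.397 and 7.68 against 8.02, 8.33 and 8.66, a difference of −0.94 ± 0.061. Neither gene overlapped between the groups. Ech1, an enzyme of fatty acid oxidation, was lower (−0.85), as was Rpa3, the small subunit of the single-strand DNA binding complex (−0.95). Frzb, a secreted antagonist of Wnt ligands, was lower (−1.07), and so were Layn, a hyaluronan receptor (−0.89), the plasma carboxypeptidase gene Cpq (−0.84) and the pseudogene Gpr137b-ps (−1.03). Signal of a pseudogene cannot be told from that of its near-identical parent where probes match both.

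Large differences also occurred in genes whose 129S1/SvImJ arrays overlapped those of another strain, so that they fall short of the range criterion. AI506816, an unnamed transcript, was lower (−3.55), with 3.01, 3.42 and 4.36 in 129S1/SvImJ against 4.04, 6.43 and 10.91 in the others. The other strain means lay between 4.74 in Balbc/J and 10.44 in DBA/2J, each higher than in 129S1/SvImJ. Snord53, a small nucleolar RNA that guides ribosomal RNA methylation, was lower (−2.36), but its 129S1/SvImJ median of 8.62 was close to the C57BL6/J mean of 8.70 (difference −0.08, adjusted p = 0.56, limma), whereas the other 4 strains averaged 11.15 to 11.97. Snord73b, another of these RNAs, was lower (−0.98) and near the level of CBA/J (difference −0.06, adjusted p = 0.80). Cd59a, which blocks the terminal complement complex, was lower (−1.004).

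The higher genes of this kind included a pair of transcripts with no approved name whose differences rested on the same strains. 4930578G10Rik was higher by 2.07, with 9.99, 10.28 and 10.55 in 129S1/SvImJ against 5.35, 9.41 and 10.26 in the others. It stood 4.30 above CBA/J and 4.399 above DBA/2J, but 0.73 above Balbc/J, 0.58 above C57BL6/J and 0.33 above C3H/HeJ, the last not called (adjusted p = 0.066, limma). Gm10590 was higher by 1.55, and it stood 2.99 above CBA/J and 3.05 above DBA/2J, against 0.40 to 0.80 above the other 3 strains. AA388235, a long noncoding RNA, was higher by 1.15 but its difference from C57BL6/J missed the threshold (−0.13, adjusted p = 0.27). These comparisons with single strains share the 129S1/SvImJ arrays.

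Of 4 genes known to separate laboratory strains, Gabra2 was the 1 whose levels followed its known pattern. Gabra2, a GABA-A receptor subunit that C57BL6/J makes in low amount, had 10.14, 10.39 and 10.65 in 129S1/SvImJ, near the means of 10.40 to 10.51 in 4 of the other strains and above the 9.53 of C57BL6/J. Disc1 was higher by 0.13 (adjusted p = 0.023, limma) and Casp4 differed by 0.01 ± 0.068 (SE) with overlapping arrays. Nnt, the mitochondrial transhydrogenase that C57BL6/J lacks in part, was lower (−0.20), but of the single strains the difference passed the threshold only against Balbc/J, which had a mean of 9.06 (−0.63, adjusted p = 2.5e-13, limma). Its difference from C57BL6/J missed the threshold (−0.03, adjusted p = 0.71, limma), and the C57BL6/J mean of 8.45 lay near the 8.54 to 8.55 of the remaining 3 strains, so that the array did not show the known deficiency of C57BL6/J. Over the 31 measured genes of a list of known strain variants, 6 were higher and 7 lower, with a median of 0.01 that was −0.01 under cyclic loess scaling.

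Differences depended on how bright a gene was. In the dimmest quartile of genes the median difference was 0.10, with 29.6% called higher and 2.11% lower, and in the brightest quartile it was −0.09, with 15.6% higher and 48.4% lower. Of the 216 genes outside the range, 105 of the 174 lower ones but also 28 of the 42 higher ones lay in the brightest quartile. When the arrays were scaled again by cyclic loess, which removes a trend with brightness, the quartile medians were −0.001, 0.014, −0.010 and −0.002, and 85 genes were outside the range above and 103 below. Of these 188 genes, 134 were among the 216. Counts for gene groups were therefore also taken under cyclic loess, and the share of lower genes in a bright group is given beside the share that genes of the same brightness had, which weights the quartiles by how many members fell in each.

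Protein folding genes were lower in 129S1/SvImJ almost as a group. These chaperones fold new or damaged proteins in the cytosol, the mitochondrion and the endoplasmic reticulum, and many are induced when unfolded protein builds up. Of 36 measured members, 33 were lower and 1 was higher, with a median of −0.32, against a median of 0.02 and 26% lower over all genes and 43.1% lower among genes of the same brightness. Under cyclic loess 25 were lower and 1 higher, with a median of −0.24. The mean level of the whole list was 9.17, 9.18 and 9.24 at the lowest, median and highest in 129S1/SvImJ, against 9.30, 9.48 and 9.91 in the others, so that the groups did not overlap.

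Every compartment of the list held lower genes. All 13 members that work in the endoplasmic reticulum were lower (median −0.39), as were all 3 mitochondrial ones (−0.35) and all 4 stress transcription factors (−0.20), and 13 of 16 cytosolic ones (−0.20). Under cyclic loess these counts were 11, 3, 3 and 8, with a median of −0.13 for the cytosolic members. Hspa5, or BiP, the main Hsp70 of the endoplasmic reticulum, had 9.98, 10.18 and 10.28 in 129S1/SvImJ against 10.43, 10.82 and 11.46 in the others. Its difference was −0.71 ± 0.070 (adjusted p = 2e-11, limma) and no array overlapped. Creld2, a redox-active protein of the same compartment, had 8.10, 8.26 and 8.58 against 8.59, 8.95 and 9.62, a difference of −0.66. The highest 129S1/SvImJ array lay just under the lowest of the others.

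Cryab, the small heat shock protein alpha-B crystallin, had 9.36, 9.74 and 9.89 in 129S1/SvImJ against 10.15, 10.48 and 10.81, a difference of −0.81. Dnajb1, the co-chaperone that hands clients to Hsp70, had 8.08, 8.25 and 8.36 against 8.36, 8.78 and 9.73, a difference of −0.62, with the nearest arrays almost touching. Xbp1, a transcription factor of the unfolded protein response, and Hspb8, a small heat shock protein, were each lower (−0.44) and outside the range. Hsp90b1, the Hsp90 of the endoplasmic reticulum, Pdia6, a disulfide isomerase, Herpud1, a degradation factor, Sdf2l1 and the mitochondrial Hspe1 were lower, with differences of −0.35, −0.51, −0.48, −0.63 and −0.51. Hspa8, the abundant constitutive Hsp70, was lower (−0.09).

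The exceptions were few. Hspb6, a small heat shock protein of muscle and astroglia, was the 1 member that was higher, with 8.24, 8.42 and 8.55 in 129S1/SvImJ against 7.405, 7.87 and 8.28, a difference of 0.61 with a slight overlap. Hspa1l, an Hsp70 mainly of testis, differed by 0.12 (adjusted p = 0.075, limma) and Bag3, which directs damaged proteins to autophagy, differed by −0.01 (adjusted p = 0.89). In CR mice 30 of 36 members were lower and 1 was higher.

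**Figure D1:**
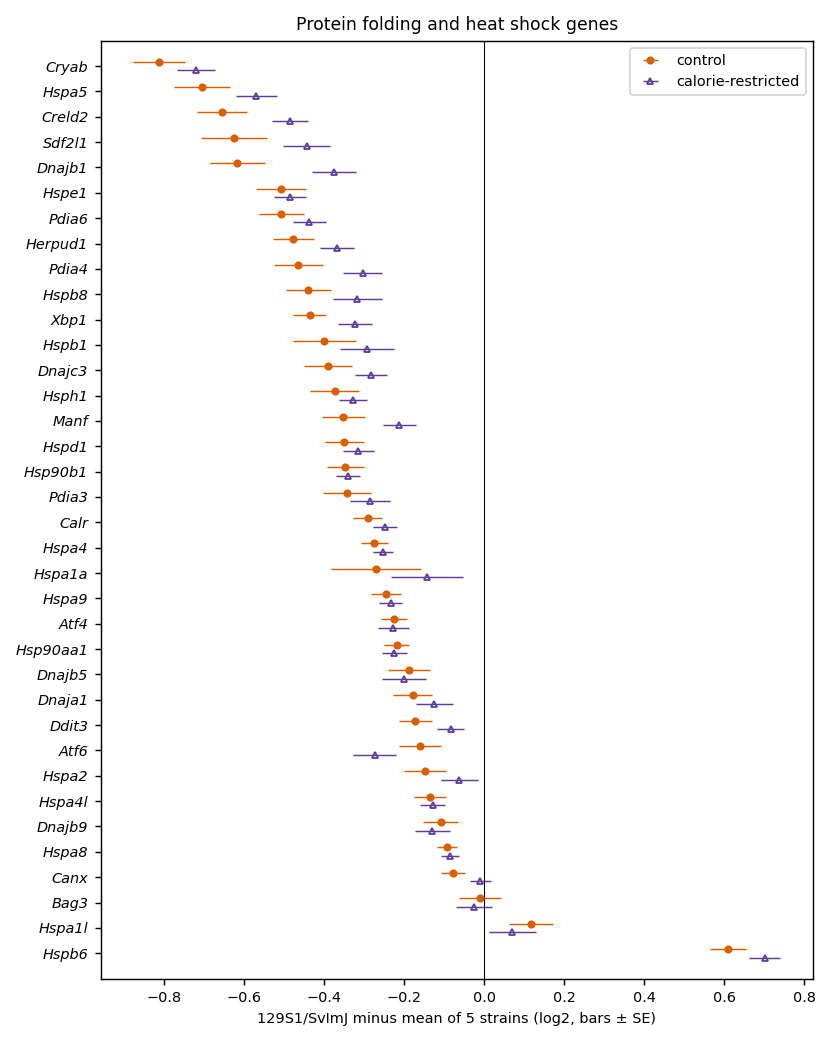
Difference of 129S1/SvImJ minus the other 5 inbred strains (log2, with standard errors) for each of the 36 protein folding genes, in control and CR mice. Most points lie below 0 on both diets, with Hspb6 alone well above it.

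Promoters of the endoplasmic reticulum genes carry a shared sequence, the endoplasmic reticulum stress element, at which ATF6 and NF-Y bind in induced cells. The element was searched as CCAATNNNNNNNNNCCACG on both strands of the 300 bases around each gene's start (250 before it, 50 after) in RefSeq promoters of the reference genome (GRCm38.p6), which is that of C57BL/6J and not of 129S1/SvImJ. It occurred in 39 of 32851 promoters (0.119%) and in 7 of the 30 folding genes with a promoter in that table: Hspa5, Hsp90b1, Pdia6, Calr, Canx, Creld2 and Dnajc3. The promoters of the 2 endoplasmic reticulum members outside the range are shown with the element in capitals, Hspa5 at chr2:34771840-34772139 and Creld2 at chr15:88819396-88819695, both on the plus strand, the match in Creld2 being on the opposite strand.
Hspa5 promoter: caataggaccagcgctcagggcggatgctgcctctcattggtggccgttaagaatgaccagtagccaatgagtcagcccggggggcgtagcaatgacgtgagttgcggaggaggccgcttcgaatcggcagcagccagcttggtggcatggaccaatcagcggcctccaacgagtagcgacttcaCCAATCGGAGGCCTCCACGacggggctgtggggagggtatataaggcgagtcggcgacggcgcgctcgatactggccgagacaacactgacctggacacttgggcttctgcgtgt
Creld2 promoter: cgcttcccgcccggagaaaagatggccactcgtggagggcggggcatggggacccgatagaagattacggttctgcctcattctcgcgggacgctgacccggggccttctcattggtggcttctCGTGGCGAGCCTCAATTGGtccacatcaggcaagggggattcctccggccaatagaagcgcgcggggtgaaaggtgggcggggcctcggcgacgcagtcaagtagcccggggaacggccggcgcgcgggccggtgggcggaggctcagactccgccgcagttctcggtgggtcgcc
Calr and Canx, lectin chaperones with the element, were lower (−0.29 for Calr and −0.08 for Canx), as was Dnajc3, an inhibitor of the translation kinase PERK (−0.39). Canx was not called under cyclic loess (−0.03) or in CR mice (−0.01). Of 14 tested genes outside the list that carry the element, 4 were higher and 2 lower, with a median of 0.01. The heat shock element GAANNTTCNNGAA, at which HSF1 binds, was found in 198 promoters (0.603%) and in 3 of the 30 folding genes (Hspd1, Hspe1 and Hsph1). Of the 85 other tested genes with it, 22 were higher and 23 lower. A match to these letters is a description and not a bound site.

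Genes of oxidative phosphorylation were also lower. The 5 complexes of the inner mitochondrial membrane pass electrons to oxygen and use the resulting gradient to make ATP, on which neurons depend. Of 82 measured subunits 58 were lower (70.7%, against 43.3% at the same brightness) and 6 higher, with a median of −0.23, and 52 and 6 under cyclic loess, with a median of −0.17. Assembly factors of complex I followed, with 6 of 7 lower. The mean level of the whole list of 90 genes, which adds these factors and cytochrome c, was 9.38, 9.43 and 9.48 in 129S1/SvImJ against 9.53, 9.65 and 9.71 in the others, again without overlap. Grouped by symbol, 27 of 36 subunits of complex I were lower, 3 of 4 of complex II, 6 of 8 of complex III, 8 of 17 of complex IV and 14 of 17 of complex V.

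Of the 82 subunits 8 lay below the whole range of the other strains, and these included at least 1 of every complex. Over all genes the share was 0.873%. In the brightest quartile, which held 58 of the subunits, 105 of 4985 genes lay below that range. Sdhd, which anchors complex II in the membrane, had 8.74, 8.92 and 9.03 in 129S1/SvImJ against 9.34, 9.71 and 9.9999, a difference of −0.79. The catalytic subunit Sdha was lower (−0.30). Ndufc2, an accessory subunit of complex I, had 11.41, 11.47 and 11.55 against 11.61, 11.97 and 12.22, a difference of −0.49. The remaining ones were Atp5pb of the ATP synthase stalk (−0.54), Uqcrh of complex III (−0.33), Cox4i1 of complex IV (−0.31), Ndufa10 of complex I (−0.25) and Ndufs5. Cox5b of complex IV differed most from CBA/J, whose mean was 12.40, with 11.36 to 11.59 in 129S1/SvImJ against 11.57 to 12.48 over all other arrays.

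Ribosomal proteins, which form the 2 subunits of the ribosome, shifted less. Of 60 measured, their paralogs included, 37 were lower (61.7%, against 42.5% at the same brightness) and 2 higher, with a median of −0.14, and 28 and 6 under cyclic loess, with a median of −0.09. The large subunit had 23 of 37 lower and the small subunit 14 of 23. A further 11 genes that share the Rpl and Rps symbols, such as S6 kinases and pseudogenes, were left out of these counts, and 4 of them were lower and 2 higher. Rpl34 was lower (−0.71), with 8.12 to 8.55 against 8.50 to 9.33, and so was Rpl6 (−0.43), with 10.48 to 10.72 against 10.80 to 11.26 and no overlap. The other strains differed among themselves in Rps2, for which 129S1/SvImJ read 11.26 to 11.42, below 4 strain means of 11.81 to 12.05 but above the 10.97 of DBA/2J. Ribosomal protein genes have many processed pseudogenes, which the probes may also read.

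Clustered protocadherins of the beta group, cell surface adhesion molecules that individual neurons choose in different combinations to recognise themselves, were mostly higher. Of 22 measured genes 15 were higher (68.2%, against 22.7% over all genes) and 1 lower (median 0.26), and 14 and 1 under cyclic loess (median 0.27). These genes lie in 1 array on chromosome 18 and resemble each other in sequence, so their probes may read more than 1 of them. Pcdhb6 had 7.98, 8.34 and 8.58 in 129S1/SvImJ against 7.11, 7.37 and 8.07 in the others, a difference of 0.88. Pcdhb3 was higher by 0.66, although DBA/2J, at 8.17, came near its 129S1/SvImJ median of 8.26. Pcdhb4 was higher by 0.49 and Pcdhb15 by 0.42. The 5 neighbours Pcdhb2, Pcdhb3, Pcdhb4, Pcdhb5 and Pcdhb6 were all higher by at least 1.2-fold.

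MicroRNA genes were higher far more often than lower. These short RNAs pair through their seed, bases 2 to 8, with messenger RNAs and lower their translation or stability. Of 297 measured, 124 were higher (41.8%, against 22.7% over all genes) and 6 lower. They are dim (median level 6.30), and in the dimmest quartile and the next 29.6% and 30.8% of genes were higher. Outside the imprinted cluster described next 106 and 6 of 257 became 74 and 15 under cyclic loess. Mir137 and Mir598 lay outside the range. Mir137, whose human counterpart lies in a locus associated with schizophrenia, had 7.84, 8.25 and 8.51 in 129S1/SvImJ against 6.80, 7.42 and 7.76, a difference of 0.84 ± 0.073 (adjusted p = 4.8e-13, limma). The lowest 129S1/SvImJ array still lay above all others. Mir598 was higher by 0.55.

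An imprinted region of chromosome 12 between Dlk1 and Dio3, whose microRNAs are made from the maternal chromosome, holds 40 of the measured microRNA genes. Of these 18 were higher and none lower, with a median of 0.17. The share higher was close to the 41.8% of all microRNA genes. Of the 257 microRNA genes elsewhere 106 were higher and 6 lower, with a median of 0.12. Under cyclic loess the region had 20 and 0, with the same median, against 74 and 15 elsewhere, with a median of 0.04. The microRNA genes of the region did not move evenly. 6 neighbours at the start of the region, Mir673 (0.29), Mir337 (0.68), Mir540 (0.69), Mir665 (1.12), Mir431 (0.33) and Mir127 (0.33), were all higher, as were Mir495 (0.79), Mir667 (0.35), Mir376c (0.43) and Mir376b (0.40) further along. Mir376c was very dim (mean level 3.97) and lost its call under cyclic loess (0.34). Others such as Mir434 (−0.01), Mir679 (0.004), Mir409 (−0.02) and Mir369 (−0.12) were not called. Mir665 read 9.86, 9.92 and 10.05 in 129S1/SvImJ against 8.04, 8.80 and 10.19, so that the highest of the other arrays lay above its range, and the means of the other strains were 8.43 to 9.11.

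The other 7 measured genes of the region, Dlk1 and Dio3 included, had a median of 0.11, with 2 higher and 0 lower. Under cyclic loess their median was 0.18, with 3 higher and 1 lower. Meg3, the maternal noncoding RNA, was higher by 0.18 and Rtl1, a retrotransposon-derived gene, by 0.25, while Rian (0.11), Dlk1 (0.13) and Dio3 (−0.12) were not called. Rian was called higher in CR mice (0.24) and under cyclic loess (0.19), where Dio3 was called lower (−0.23). Rtl1 lies opposite several of these microRNAs, Mir431 and Mir127 among them, and the sources used here do not say how strand was handled in the array design. The probe sets do not separate a mature arm from its precursor. The mature sequences of the most changed members are given with the seed in capitals, from RefSeq (GRCm38.p6), since a reader would look for targets through them; no seed among them was shared with another tested microRNA gene.
mmu-miR-137-3p (chr3:118433901-118433923): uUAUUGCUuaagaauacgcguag
mmu-miR-137-5p (chr3:118433865-118433887): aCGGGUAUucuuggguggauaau
mmu-miR-665-3p (chr12:109586368-109586387): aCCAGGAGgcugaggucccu
mmu-miR-665-5p (chr12:109586331-109586356): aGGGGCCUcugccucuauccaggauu
mmu-miR-495-3p (chr12:109718795-109718816): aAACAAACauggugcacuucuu
mmu-miR-495-5p (chr12:109718757-109718779): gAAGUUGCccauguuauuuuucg
mmu-miR-337-3p (chr12:109585850-109585871): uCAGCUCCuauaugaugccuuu
mmu-miR-337-5p (chr12:109585818-109585839): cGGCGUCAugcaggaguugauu
mmu-miR-540-3p (chr12:109586122-109586141): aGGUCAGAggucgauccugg
mmu-miR-540-5p (chr12:109586085-109586107): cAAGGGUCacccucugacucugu
All 5 genes lie on the plus strand of the genome. A mature sequence was in the RefSeq table for 271 of the 297 genes.

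**Figure D2:**
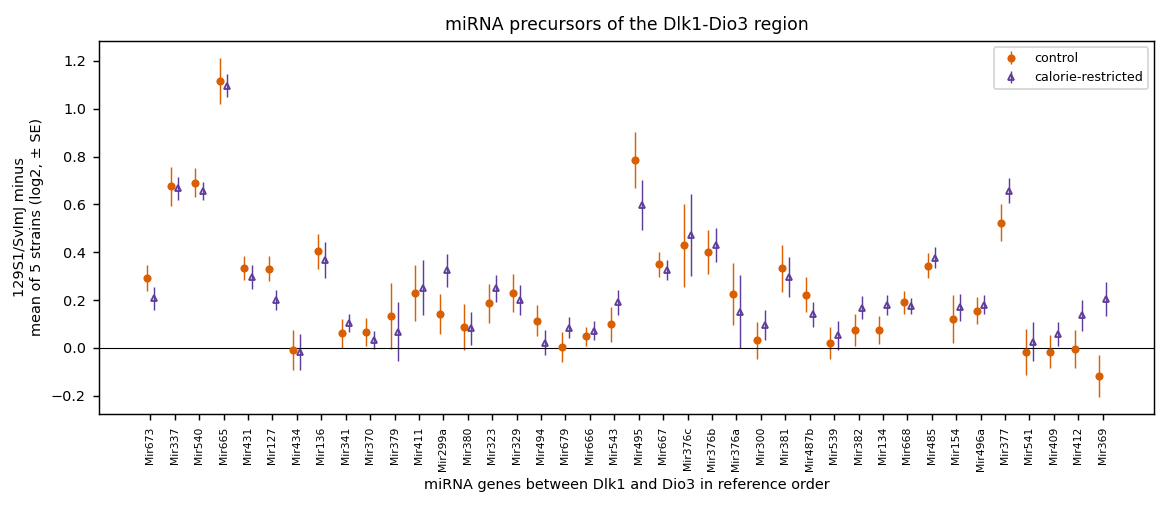
Difference of 129S1/SvImJ minus the other 5 inbred strains (log2, with standard errors) for the 40 microRNA genes between Dlk1 and Dio3, in their order along the chromosome, in control and CR mice. Peaks at Mir665, Mir495 and Mir377 recur on both diets, and no control difference reached the threshold below 0.

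Genes outside the range also occurred next to each other. On chromosome 15 Baalc and its neighbour Fzd6, a Wnt receptor, were both lower, Fzd6 with 6.91, 7.09 and 7.396 in 129S1/SvImJ against 7.51, 7.70 and 8.06 (difference −0.61). The lower run went on through Cthrc1, a secreted regulator of Wnt signalling (−0.79), Slc25a32, a mitochondrial folate carrier (−0.44), and Dcaf13, a ribosome assembly factor (−0.30). On chromosome 5 Kctd10, a ubiquitin ligase adaptor, and Ube3b, a ubiquitin ligase, were lower, with differences of −0.39 for Kctd10 and −0.34 for Ube3b.

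Other neighbours moved in opposite directions. On chromosome 7 Clip3, a microtubule-binding protein, was higher by 0.37, with 12.17 to 12.27 against 11.57 to 12.13, while Alkbh6, of a family of DNA and RNA demethylases, was lower (−0.37), with 9.45 to 9.73 against 9.75 to 10.25. On chromosome 8 Tecr, which makes very long fatty acids, was higher by 0.27 beside Dnajb1. None of these 4 genes overlapped between the groups.

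Markers of glia and vessels were lower more often than higher. In bulk tissue fewer cells of a type and less RNA per cell cannot be told apart. Of 30 microglial genes 16 were lower and 5 higher (median −0.13, and 15 and 5 under cyclic loess). Lower genes made up 53.3% of the list, against 29.5% at the same brightness. Ly86, a partner of the Toll-like receptor homologue CD180, had 8.11, 8.51 and 8.87 in 129S1/SvImJ against 8.87, 9.29 and 9.75, a difference of −0.76, the groups meeting at 8.87. Ctss, a lysosomal protease, was lower (−0.56), as were Aif1, or Iba1 (−0.45), and, with no overlap, Mpeg1, a pore-forming protein of macrophages (−0.89). Defining markers did not all follow: Cx3cr1 differed by −0.03 and Tmem119 by 0.05, neither called, whereas P2ry12 (−0.26) and Csf1r (−0.18) were lower. Under cyclic loess P2ry12 stayed lower (−0.24), Csf1r lost its call (−0.09) and Tmem119 was higher (0.12). C1qb (−0.11) and Ptprc (−0.07) were not called, and Lyz2 was lower (−0.51). C1qc, a complement subunit, was higher by 0.57, at a median of 8.66 in 129S1/SvImJ, which is also the C57BL6/J mean, against 7.57 to 8.28 in the other 4 strains, while C1qa was lower (−0.14).

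Astrocyte genes were lower in 14 and higher in 3 of 28 (median −0.14, and 12 and 5 under cyclic loess), and the 50% lower was close to the 46.1% of genes of the same brightness. S100b, a calcium-binding protein of these cells, had 8.10, 8.17 and 8.46 in 129S1/SvImJ against 8.49, 8.87 and 9.22, a difference of −0.66 without overlap. Acsbg1, a fatty acyl-CoA synthetase, was lower (−0.42), as was Aldoc, a glycolytic enzyme (−0.24), while Serpina3n was the highest of the list. Endothelial and mural genes were lower in 16 and higher in 2 of 31 (median −0.11, and 13 and 3 under cyclic loess), which is 51.6% lower against 34.7% at the same brightness. The receptors for vascular endothelial growth factor Flt1 and Kdr were lower, by −0.27 for Flt1 and −0.38 for Kdr, as was the thyroid hormone transporter Slco1c1, and Ly6e, an interferon-induced surface protein, was higher by 0.50. Myelin and oligodendrocyte genes were lower in 11 and higher in 3 of 30, with a median of −0.04 that turned to 0.02 under cyclic loess (6 and 6), and the 36.7% lower was below the 43.4% at the same brightness. Mbp, the myelin basic protein, was lower (−0.26), as was Apod, a lipid carrier (−0.35).

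Neuronal gene lists held both higher and lower genes, and fewer lower ones than genes of the same brightness. Of 51 synaptic vesicle and scaffold genes 14 were higher and 12 lower (23.5%, against 47.2% at the same brightness), which became 24 and 3 under cyclic loess. Of 64 voltage-gated channel genes 13 were higher and 14 lower (21.9%, against 44.6% at the same brightness), which became 24 and 6. Syn3, a synapsin, was higher by 0.36 with no overlap, and Scn2b, an auxiliary subunit of sodium channels, was lower (−0.48), with 9.67 to 9.96 against 9.98 to 10.47. Dlg4, or PSD-95, was higher and Unc13a, which primes vesicles, lower. Glutamate receptor subunits counted 7 higher and 5 lower of 23 (10 and 0 under cyclic loess), with 21.7% lower against 43.4% at the same brightness. GABA-A and glycine receptor subunits counted 6 higher and 4 lower of 20 (7 and 3 under cyclic loess), with 20% lower against 33.5%. Gabrr2 was higher by 0.39, and Gabrd, an extrasynaptic subunit, was lower (−0.26).

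Axon guidance genes were higher in 14 and lower in 14 of 65 (23 and 8 under cyclic loess), with 21.5% lower against 41.7% at the same brightness. 129S1/SvImJ and its relatives often have a small or absent corpus callosum, the main commissure between the hemispheres, and the list was included for this reason. Sema7a, a membrane-anchored semaphorin, was lower (−0.48), with 9.18 to 9.87 against 9.35 to 10.42, and Nfia, a transcription factor needed for the callosum to form, was higher by 0.27. Neuropeptides and their receptors counted 9 higher and 10 lower of 50, monoamine and acetylcholine genes 6 and 6 of 45, excitatory neuron and layer genes 7 and 5 of 34, and interneuron genes 5 and 5 of 26, all below the shares over all genes. Lower genes made up 14.7% of the excitatory list, against 43.3% at the same brightness (9 higher and 2 lower under cyclic loess). The interneuron list had 19.2% against 41.7%, neuropeptides 20% against 30.9%, and monoamine and acetylcholine genes 13.3% against 26.9%. Sst, the peptide somatostatin, was higher by 0.30 and Chgb, a granin of secretory vesicles, lower (−0.34). Of 32 genes of amyloid, tau and synuclein biology 5 were higher and 11 lower (34.4%, against 45.9% at the same brightness). Their median of −0.04 turned positive under cyclic loess (12 and 6). App, the amyloid precursor, was lower (−0.29) and its relative Aplp1 higher by 0.39.

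Immune and detoxification lists differed from each other in their counts. MHC and antigen presentation genes were higher in 10 (34.5%, against 22.7% over all genes) and lower in 5 of 29. Most are dim: 12 lay in the dimmest quartile and 11 in the next, where 29.6% and 30.8% of genes were higher. Under cyclic loess 5 were higher and 4 lower, and the median was −0.003 in place of 0.08. In CR mice 7 were higher and 5 lower, with a median of 0.0002, so the list had no steady direction. Interferon-inducible genes were higher in 7 and lower in 11 of 46 (23.9% lower, against 10.5% at the same brightness). Under cyclic loess 2 were higher and 14 lower, with a median of −0.07. Xaf1, a pro-apoptotic interferon target, was higher by 0.64 and Irgm1, a GTPase that acts against intracellular pathogens, lower (−0.43). Of 45 glutathione and antioxidant genes 22 were lower (48.9%, against 33% at the same brightness) and 6 higher (median −0.12), with Gsta4, a glutathione transferase that clears lipid aldehydes, at 8.27 to 8.65 in 129S1/SvImJ against 8.71 to 9.22 and a difference of −0.51. Mgst3, another transferase, was lower (−0.43), as was Txnrd1, a thioredoxin reductase (−0.33). Cytochrome P450 and sulfotransferase genes, most of them dim in brain, were higher in 33 and lower in 4 of 99, and 15 and 9 under cyclic loess. The 33.3% higher compares with 22.7% over all genes and 29.6% in the dimmest quartile.

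Lipid and cholesterol genes were lower in 20 and higher in 4 of 46, and in 14 and 9 under cyclic loess, and the 43.5% lower was about the 44.3% of genes of the same brightness. Acadm, which starts the oxidation of medium-chain fatty acids, had 8.86, 9.004 and 9.14 in 129S1/SvImJ against 9.14, 9.47 and 9.93, a difference of −0.45 with the groups just apart. Insulin, IGF and glucocorticoid genes counted 10 higher and 9 lower of 35, and the clock list 2 and 8 of 21, with medians of −0.02 and −0.05 that both turned positive under cyclic loess. Lower genes made up 25.7% and 38.1% of these lists, against 42.1% and 45.3% at the same brightness. Nr1d1, a repressor of the clock, was higher by 0.35 and Cry1, another repressor, lower (−0.31). Immediate early genes, which neuronal activity induces, were lower in 12 and higher in 0 of 31 (median −0.09; 38.7% lower against 37.9% at the same brightness), among them Homer1, a synaptic scaffold (−0.34). Zinc finger genes counted 60 higher (17.1%) and 111 lower (31.7%) of 350 (83 and 84 under cyclic loess). Tripartite motif and Nlr genes counted 13 higher (14.9%) and 16 lower (18.4%) of 87. Over all genes 22.7% were higher and 26% lower.

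Lists of neighbouring tissues showed how evenly the cortex was dissected. Striatal genes had a median of −0.30 with 4 lower and 0 higher of 20. The 20% lower compares with 26% over all genes and 39.2% at the same brightness. In CR mice the median was −0.30 and 0 were called. In control mice the mean level of the list spread from 7.92 to 9.83 over the 129S1/SvImJ arrays against 8.03 to 9.95 over the others. Striatal tissue thus varied from mouse to mouse in both groups. Tac1, a striatal neuropeptide, was lower (−0.85), and differed by −0.40 with the striatal level as a covariate. Genes of the choroid plexus and meninges were higher in 8 (30.8%, against 22.7% over all genes) and lower in 0 of 26 (7 and 3 under cyclic loess). Igf2, a growth factor of meninges, was higher by 0.59, while Ttr, the defining gene of the choroid plexus, differed by 1.05 ± 0.48 (adjusted p = 0.065, limma). Hippocampal genes were higher in 6 (26.1%) and lower in 3 of 23, and thalamic and midbrain genes in 4 (18.2%) and 1 of 22. Cerebellar genes were higher in 1 (4.76%) and lower in 1 of 21, and blood genes in 2 (16.7%) and 2 of 12. Over all genes 22.7% were higher. Lower genes made up 13%, 4.55%, 4.76% and 16.7% of these lists, against 30.7%, 25.6%, 18.6% and 15% at the same brightness. The part of dissection in the other results was not tested beyond the covariate, under which 32 of the 36 protein folding genes were still lower.

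The same strain difference was seen in the CR mice, which are other animals on another diet. There 8474 genes were called (42.5%), 3688 higher (18.5%) and 4786 lower (24%), and 217 (1.09%) lay outside the range of the other 40 arrays, 42 higher (0.211%) and 175 lower (0.878%). Of the 9714 genes called in control mice, 6896 (71.0%) were called in CR mice with the same sign and 1 with the opposite sign. All 216 genes outside the range in control mice were called in CR mice with the same sign, and 86 (0.431% of genes tested) lay outside the range again, 18 higher (0.0903%) and 68 lower (0.341%). The CR arrays include CBA/J CR replicate 6, whose cerebellar genes averaged 7.86, against 7.305 in the next highest CR array. Without it 8427 genes were called in CR mice, and its part in the CR range counts was not tested. Across the 19938 genes the 2 sets of differences had a Pearson r of 0.908, where genes are not independent replicates.

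Single genes repeated closely. The CR differences were 2.32 for Gdpd3, 2.00 for Serpina3n, 0.94 for Anxa5, −0.97 for Rpl4, −1.07 for Baalc and −1.05 for Churc1, all of them outside the range on both diets. Mir137 differed by 1.02 and Mir665 by 1.10, both outside the range in CR mice. Hspa5 was lower (−0.57), with 10.23 to 10.63 against 10.60 to 11.41 and a slight overlap. Cmbl, Frzb and Adi1 kept their calls but overlapped the other strains.

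The test of whether the strain difference itself changed with diet called 1 gene of 19938 (0.00502%), and 1052 (5.28%) had an unadjusted p under 0.05. The called gene, Pnrc2, encodes a protein that links nonsense-mediated decay with decapping of messenger RNA. In CR mice it had 9.79, 9.93 and 10.09 in 129S1/SvImJ against 9.66, 9.84 and 10.08 in the others, a difference of 0.10. In control mice it had 9.40, 9.62 and 9.81 in 129S1/SvImJ against 9.49, 9.81 and 10.17 in the others, a difference of −0.17, and the groups overlapped on both diets. The difference in CR mice minus that in control mice was 0.27 ± 0.053 (limma, adjusted p = 0.034), and the call was lost with C57BL6/J control replicate 6 kept or with each array centred on its median. Cldn5, a tight junction protein of brain vessels, was lower in CR mice (−0.60) and in control mice (−0.27), but the change missed the threshold (adjusted p = 0.33).

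**Figure D3:**
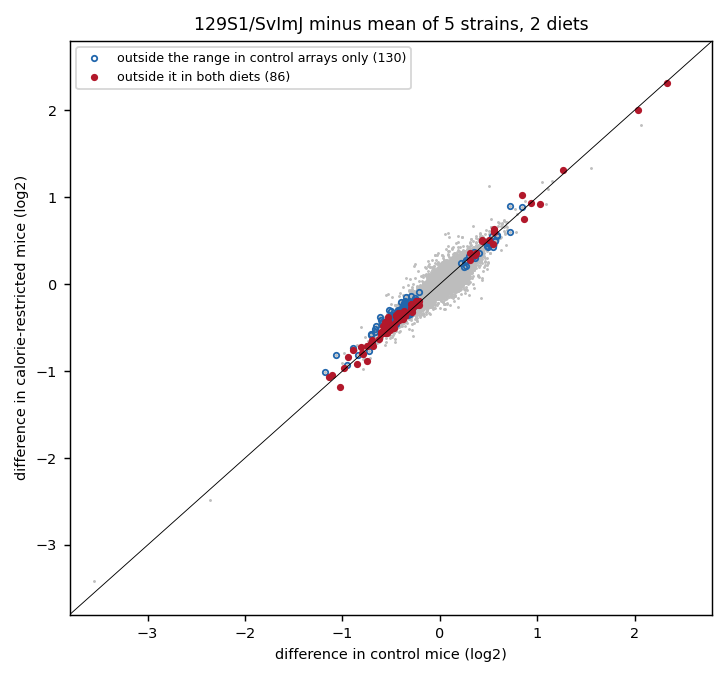
Difference of 129S1/SvImJ minus the other 5 inbred strains (log2) in CR mice against that in control mice, 1 point a gene, with the genes outside the range in control mice only and on both diets marked. The points lie along the diagonal, and the marked genes keep their sign.

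Each of the 6 inbred strains was set against the equal-weight mean of the remaining 5 in the same way. These contrasts share all their arrays, so the counts are only given side by side. Outside the range in control mice lay 216 genes for 129S1/SvImJ, 240 for C57BL6/J, 35 for DBA/2J, 24 for Balbc/J, 19 for C3H/HeJ and 16 for CBA/J. The share of these that were lower was 80.6% for 129S1/SvImJ, 68.8% for CBA/J, 45.7% for DBA/2J, 41.7% for Balbc/J, 29.6% for C57BL6/J and 26.3% for C3H/HeJ. In CR mice it was 80.6% for 129S1/SvImJ, 80% of 20 genes for CBA/J and 47.7% for C57BL6/J. These shares are of the deposited values and depend on scaling. Under cyclic loess 103 of 188 genes outside the range for 129S1/SvImJ in control mice were lower, and under quantile normalization 113 of 198. The other strains were not counted under those scalings. C57BL6/J had 7 control arrays, and DBA/2J control replicate 8 was kept. Within the 216 genes, the strain mean nearest to 129S1/SvImJ was that of DBA/2J for 84, CBA/J for 55, C3H/HeJ for 43, C57BL6/J for 25 and Balbc/J for 9.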

How the data were processed

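The deposited values are log2 signal of 35556 probe sets on 112 arrays, which the authors computed from cerebral cortex RNA by RMA-Sketch in Affymetrix Expression Console. The sources used here state neither the versions nor if RMA took in all arrays at once. RMA subtracts background, equalises the arrays' distributions and summarises probes on a log scale, which compresses differences of dim genes. Probe sets were named by the platform annotation: 21789 had 1 gene symbol, 1621 several and 12146 none. The brightest probe set stood for each of 19938 genes (999 had several). All sample columns were used (0 unused).

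Strain means were fitted in R 4.3.3 with limma 3.58.1 (lmFit, contrasts, eBayes), for control arrays (47), CR arrays (48) and both diets together (interaction), with Benjamini-Hochberg adjustment over all genes, a threshold of 0.05 and ± giving the standard error. The fits were tested on simulated data. RefSeq tables (GRCm38.p6) gave positions and sequences.

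Named genes were the 12 highest and 12 lowest outside the range, the 4 largest each way not outside it, up to 4 members of each of 35 lists, the 4 strain checks, the 4 smallest interaction p-values and the genes of the 4 longest runs of neighbours. Further genes of the folding, respiratory, protocadherin, microRNA, glial, Dlk1 to Dio3 and chromosome 15 groups, and Ttr, were named after their values were seen. The members and lists were chosen with earlier results of these data known. Alternatives covered the arrays and strains used, scaling, filtering, variance model, probe set choice, a 1.2-fold test and a replicate block. Cyclic loess, the covariates for array spread and striatal level, the list counts and their shares at the same brightness were added after seeing the data.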

Additional observations from a re-analysis of the deposited data

Results flagged for a closer look

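Not every gene named in the text was examined for single outlying arrays. In 13 of 194 groups of 8 arrays (part of the text's named genes, in 129S1/SvImJ control and CR mice), 1 array stood far from its group. Chance alone does so in about 1 in 20 such groups. In control mice these were AA388235 in replicate 2 (6.504, lowest), AI506816 in replicate 4 (4.36, highest), Chgb in replicate 6 (9.84, lowest), Mgst3 in replicate 6 (8.63, lowest), Gabrd in replicate 1 (9.15, highest), Gabrr2 in replicate 5 (6.72, lowest), Mir137 in replicate 7 (7.84, lowest) and Rpl4 in replicate 1 (9.48, highest). In CR mice they were Aif1 in replicate 8 (6.45, highest), Apod in replicate 6 (11.87, highest), Cry1 in replicate 8 (7.33, lowest), Irgm1 in replicate 2 (6.52, lowest) and Stxbp4 in replicate 3 (8.50, lowest). The difference of Pnrc2 between 129S1/SvImJ and the other strains changed with diet by 0.27 (interaction, limma).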

How the results depend on the processing

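All limits here concern the 19938 genes and the alternatives named. The replicate numbers do not pair the arrays: over 115 pairs of same-numbered arrays of different strains the deviations from the group means had a mean correlation of 0.0095 (range −0.427 to 0.531), and 7 of 47 arrays correlated best with their own number. With the replicate block 9705 genes were called in control mice, 8617 in CR mice and 1 in the interaction. With each 129S1/SvImJ array left out in turn the control count ran from 8468 to 10221, the CR count from 7545 to 8309 and the count outside the range from 225 to 294. With genes above the median level only, 6241 were called in control mice, and by the test against a 1.2-fold change 442 in control and 384 in CR mice. Outside the range lay 331 genes without DBA/2J control replicate 8 and 426 without DBA/2J, in place of 216. The interaction called 0 genes with C57BL6/J control replicate 6 kept and 0 with each array centred on its median. Scaling moved the balance of directions: of the called genes 46.7% were higher, against 49.7% under quantile normalization and under cyclic loess and 25.7% among the genes above the median level, and of the genes outside the range 19.4% were higher, against 42.9% under quantile normalization (85 higher and 113 lower) and 45.2% under cyclic loess (85 and 103). The cause was not tested.

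Over 179 named genes and their alternatives, 4763 of 4969 values kept their direction and side of the threshold, 174 lost the call, 19 gained it and 13 changed direction. The changes of direction were in 4 genes. Casp4, not called, gave −0.0305 to 0.0549 without single 129S1/SvImJ arrays, −0.000423 without Balbc/J, −0.00185 without C57BL6/J, −0.091 under quantile normalization, −0.10 under cyclic loess and −0.064 and −0.030 with the covariates for array spread and striatal level. Gabra2 was −0.044 without C57BL6/J, Pttg1 0.027 without C57BL6/J, and Pim2 0.049 under quantile normalization and 0.059 under cyclic loess. Cacng2 and Stxbp4 fell to 0.52 and 0.33 with their probe sets averaged and stayed called. Signal near background and single-symbol annotation limit what can be said of dim genes.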
